A study of Mus musculus with 11 samples.

Results

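The genes described here encode the proteasome, the particle that breaks down proteins marked with ubiquitin. They were chosen by symbol, as every gene whose symbol reads Psma to Psmg followed by a digit, with 4 pseudogene symbols left out. The rule found 50 genes among 55421 in the count files, and 46 of them passed the filter on low counts and were tested. By role, 15 encode subunits of the core particle, 9 the base and 8 the lid of the regulatory particle, 4 the catalytic subunits of the immunoproteasome and thymoproteasome, 6 activators or an inhibitor, and 7 assembly chaperones. The remaining gene, Psmc3ip, fits the symbol rule but encodes a partner protein of meiotic recombination and no proteasome subunit.

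The libraries hold ribosome-bound RNA from whole mouse cerebellum on postnatal day 56. All 11 mice carried Pcp2Cre, a constitutive Cre driven by the Purkinje cell promoter Pcp2, and Rpl22HA/HA, a ribosomal protein allele that gains an HA tag where Cre acts, so that tagged ribosomes can be pulled down with an antibody. The 4 knockouts (KO) carried Tie2flox/flox in addition, which the same Cre recombines, and the 7 controls (WT) did not. Both groups therefore have active Cre and tagged ribosomes, and the pull-down depends on where the Pcp2 promoter is active. Batch 1 holds 2 KO and 1 WT, batch 2 1 KO and 1 WT, and batch 3 1 KO and 5 WT. Each library has its own animal tag, by which it is named here, and p-values measure the spread between these libraries after batch and genotype. Only batch 1 holds more than 1 KO and only batch 3 more than 1 WT. The spread between animals of 1 genotype within a batch is therefore seen in these alone.

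Reads in genes numbered 2583227 to 4199299 per KO library and 4087197 to 5142671 per WT library. The deepest KO was M390, the knockout of batch 2, while the other 3 KO had at most 3399746, fewer than any control. Tek, which encodes Tie2, had 0 to 14 reads per KO library and 0 to 40 per WT library, and KO minus WT came to 0.87 ± 0.95 (SE) on the log2 scale (edgeR adjusted p = 0.52), so it does not check the labels. All 20 Purkinje cell markers listed were detected in every library, and 4 were higher and 3 lower in the KO. Among all tested genes 10.9% were higher and 13.4% lower (edgeR adjusted p under 0.05). The Purkinje cell marker sums were 7102 to 9840 CPM in the KO and 7443 to 9253 CPM in the WT. Granule cell markers, with 9 of 14 higher and 0 lower in the KO, summed to 631 to 1786 CPM in KO libraries and 485 to 960 CPM in WT libraries. CPM is the read count scaled to a common library total with TMM factors. For 14 Bergmann glia and astrocyte markers, 6 of them higher and 0 lower, the sums were 1210 to 2168 and 1182 to 1496 CPM, and for 12 oligodendrocyte markers, 11 of them tested, 2 higher and 0 lower, they were 323 to 975 and 290 to 722 CPM. Zic2 of the granule list and Olig2 of the oligodendrocyte list were at 0 in at least 1 library, and no gene of the 3 lists was at 0 in all. Of 7 tested endothelial markers, cells in which Tek is normally active, 1 was higher and 0 lower, with sums of 19.1 to 102 and 13.0 to 129 CPM. In pulled-down RNA from tissue, fewer cells of a type and less RNA per cell cannot be told apart.

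The proteasome joins a barrel-shaped core, in which rings of alpha subunits enclose rings of beta subunits with the protease sites, to a regulatory particle that binds, unfolds and feeds in the substrate. The base of the regulatory particle holds a ring of ATPases, and the lid removes ubiquitin from the substrate. Each particle needs its subunits in fixed proportion, and dedicated chaperones build the alpha ring and the base. In neurons the proteasome controls protein turnover at synapses and in dendrites.

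In ribosome-bound RNA a minority of proteasome genes differed between KO and WT, and in no subcomplex did all genes pass. With batch as a term in the model, 2 genes were higher in the KO and 9 lower, of 46 tested (edgeR quasi-likelihood test, Benjamini-Hochberg adjusted over 13375 genes, threshold 0.05). The share called among all tested genes was 24.4%, with 10.9% higher and 13.4% lower, and among the proteasome genes it was 23.9%, so the number called is near the background. The 9 lower genes were the lid genes Psmd14, Psmd3 and Psmd6, the base genes Psmd1, Psmc2 and Psmc4, the core gene Psmb7, the inhibitor gene Psmf1 and Psmc3ip. The 2 higher genes, Psmd9 and Psmg3, both encode assembly chaperones. The median log2 fold change was -0.058 over the 46 genes and -0.017 over all tested genes. The counts depended on KO M456 and WT M379, each the only library of its genotype in its batch. Without it, that batch adds nothing to the KO against WT difference. Without M456, the only KO of batch 3, no proteasome gene passed (12 had an unadjusted p under 0.05, edgeR). Without M379, the only control of batch 1, 1 was higher and 0 lower (11 under 0.05, edgeR). Log2 fold changes moved unevenly: without M456 Psmd1 was at -0.79 and Psmb7 at -0.31, against -0.78 and -0.67 with all libraries. The loss was series-wide, with 335 and 522 genes called in these fits against 3257.

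**Figure D1:**
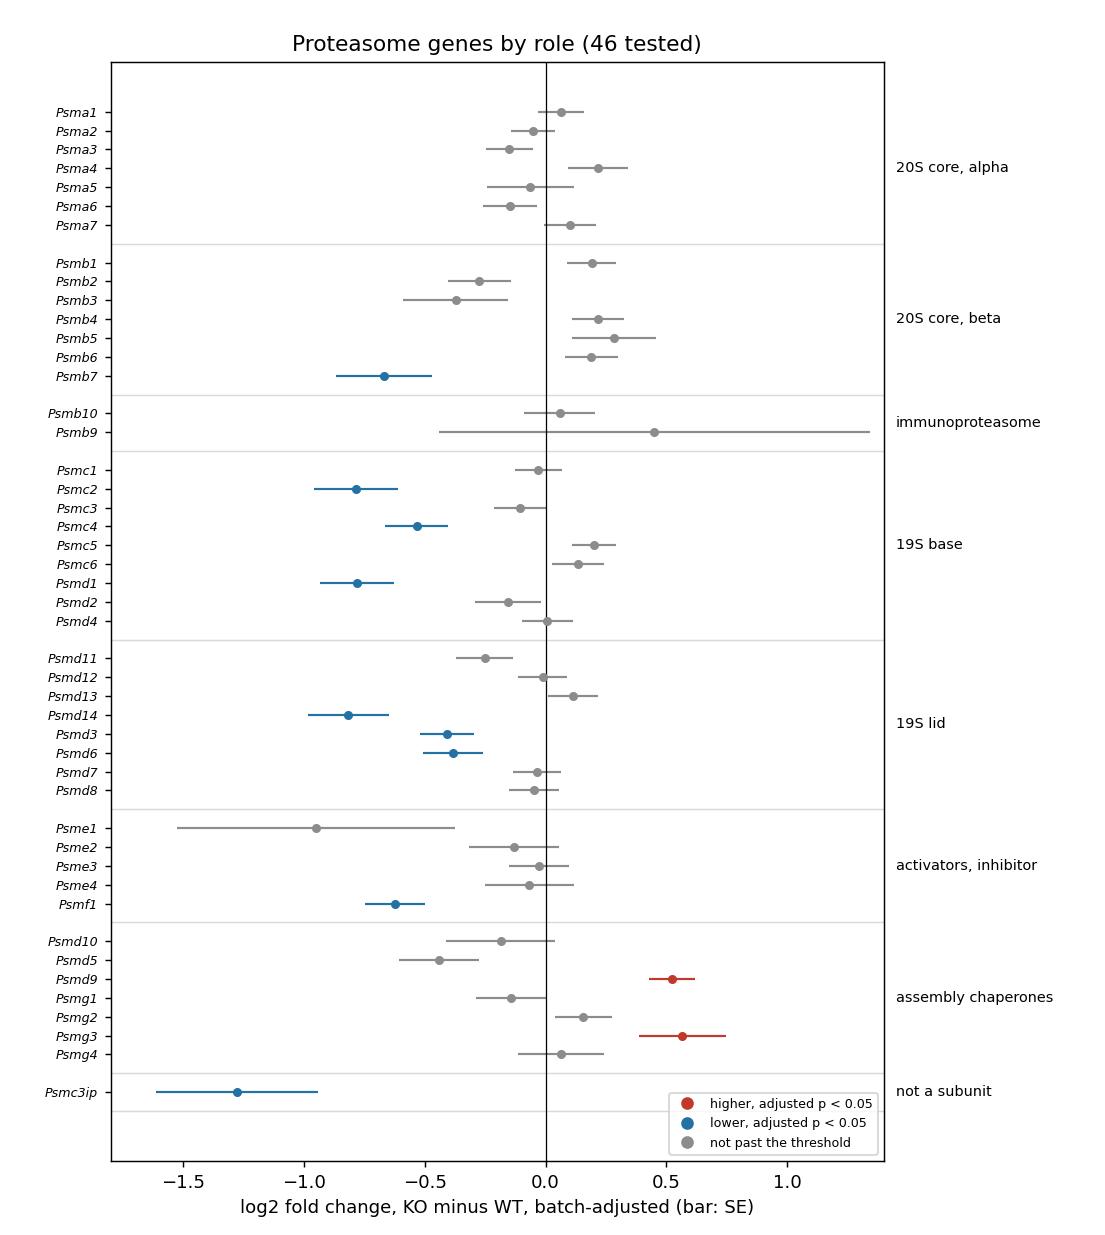
Log2 fold change of KO against WT for the 46 tested genes, adjusted for batch, in rows grouped by role, with bars for the SE. Genes past the adjusted threshold are coloured: 9 lie to the left of 0 (lower in KO) and 2 to the right, both among the assembly chaperones.

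In the core particle 1 of 14 tested genes was lower and 0 were higher, against 13.4% and 10.9% of all tested genes. The median log2 fold change of the core genes was 0.0060. None of the 7 tested alpha subunit genes passed, and their log2 fold changes lay between -0.15 and 0.22. These subunits form the gated outer rings. Among the 7 beta subunit genes, which line the inner chamber, the median was 0.19 and only Psmb7 passed. Without the batch term the core median was 0.12, and with a covariate for the library total it was -0.10.

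Of the catalytic genes of the core, Psmb7, Psmb6 and Psmb5, only Psmb7 passed. Psmb7 (ENSMUSG00000026750, chromosome 2, 38588046 to 38643952 in GRCm38) encodes the subunit with trypsin-like activity. Its level in the KO libraries was 70.2 CPM in F371, 73.6 in M374, 103 in M390 and 36.9 in M456, and in the WT libraries 87.6 (lowest), 96.5 (median) and 108 CPM (highest). The KO libraries of batches 1 and 3 lay below every control, and M390 lay within the control range. The batch-adjusted log2 difference was -0.67 ± 0.20 (SE, edgeR adjusted p = 0.0255), with within-batch log2 ratios of -0.58, 0.065 and -1.32 in batches 1, 2 and 3. Without KO M456 the value was -0.31 (edgeR adjusted p = 0.31), and without the batch term -0.43 (adjusted p = 0.13).

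Psmb6 encodes the subunit with caspase-like activity. It was at 186, 194, 181 and 186 CPM in KO F371, M374, M390 and M456, and at 131, 147 and 180 CPM (lowest, median, highest) in the controls. All 4 KO values were above all 7 controls, yet the controls of batches 1 and 2, at 180 and 175 CPM, were close to the KO of their own batches. With batch in the model the test was not passed at 0.19 ± 0.11 on the log2 scale (edgeR adjusted p = 0.22), and without KO M456 the value was 0.062. Psma4, an alpha subunit gene, also had all 4 KO above all controls, with 108 to 124 CPM in the KO, 84.1 to 107 in the controls and a log2 fold change of 0.22 ± 0.12 (edgeR adjusted p = 0.21). Psmd9 was the third gene whose KO values all lay outside the control range, so that 3 of 46 did, all above it, where 6.2% of all tested genes lay above and 6.77% below.

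Psmb5 encodes the subunit with chymotrypsin-like activity, the main target of proteasome inhibitor drugs. Its KO levels were 49.0, 43.6, 42.3 and 68.7 CPM in F371, M374, M390 and M456, against 40.7, 43.8 and 53.3 CPM (lowest, median, highest) in the controls. Only M456 stood above the controls, and the test was not passed at 0.28 ± 0.17 on the log2 scale (edgeR adjusted p = 0.24). Without M456 the value for Psmb5 was 0.055.

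The immunoproteasome replaces these catalytic subunits with Psmb8, Psmb9 and Psmb10 in immune cells and in cells exposed to interferon. Psmb10 was at 127, 134, 156 and 153 CPM in KO F371, M374, M390 and M456 and at 111, 126 and 178 CPM in the controls. Every KO value lay inside the control range, and the log2 fold change was 0.059 ± 0.15 (edgeR adjusted p = 0.80). Psmb9 had 45 reads in the 4 KO libraries together and 115 in the 7 controls. It was at 7.26, 0, 3.31 and 2.41 CPM in KO F371, M374, M390 and M456 and between 0.462 and 5.76 CPM (median 3.7) in the controls, so the KO spread was wider than the control range. The log2 value of 0.45 ± 0.89 had an SE larger than the value (edgeR adjusted p = 0.74). Psmb8 was below the filter, with 23 reads in the KO, 13 of them in M456, and 35 in the controls. Psmb11, the subunit of the thymus, had 0 reads in the KO and 6 in the controls, and 3 counts over the group, the limit set by 0 reads, correspond to 0.222 CPM. This limit covers counting error only. Microglia markers, whose cells express the immunoproteasome, summed to 29.9 to 164 CPM in the KO and 38.6 to 79.1 CPM in the controls. Of these markers 3 of 10 tested were higher and 0 lower, against 10.9% and 13.4% of all tested genes. Aif1 and P2ry12 were at 0 in at least 1 library. The part of microglial RNA in the Psmb8 and Psmb9 reads was not tested. Psma8, an alpha subunit of the testis, was also below the filter, with 26, 0, 36 and 0 reads in KO F371, M374, M390 and M456 and 3 to 18 in the controls.

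The base of the regulatory particle had 3 of 9 genes lower and 0 higher, against 13.4% and 10.9% of all tested genes. Its median log2 fold change was -0.11. The within-batch medians were -0.28, 0.0025 and 0.092 in batches 1, 2 and 3, and leaving out 1 library gave -0.15 to 0.021, the latter without WT M379, so the sign rests on batch 1. Its 6 ATPase genes, whose products form a single ring with 1 copy of each, did not move together. Psmc2 (ENSMUSG00000028932, chromosome 5, 21785275 to 21803787) was at 82.7, 91.2, 174 and 64.2 CPM in KO F371, M374, M390 and M456 and at 119, 145 and 178 CPM (lowest, median, highest) in the controls. M390 was as high as the control of its batch, at 174 CPM, and the other 3 KO were below every control. On the log2 scale the KO differed from the WT by -0.78 ± 0.18 (SE, edgeR adjusted p = 0.00667), and the within-batch ratios were -1.03, 0.0025 and -1.11.

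Psmc4 (ENSMUSG00000030603, chromosome 7, 28041702 to 28050092) was at 116, 116, 184 and 106 CPM in the same KO order and at 145, 174 and 196 CPM in the controls. Again only M390 lay within the control range. It fell by 0.53 ± 0.13 on the log2 scale (edgeR adjusted p = 0.00968). The other 4 ATPase genes, Psmc1, Psmc3, Psmc5 and Psmc6, had log2 fold changes of -0.11 to 0.20 with a median SE of 0.10 and none passed. Of them Psmc5 had the largest value, 0.20 ± 0.093 (edgeR adjusted p = 0.12).

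Psmd1 (ENSMUSG00000026229, chromosome 1, 86064619 to 86139295) encodes a large scaffold of the base. Its levels were 70.5, 65.3, 135 and 83.1 CPM in KO F371, M374, M390 and M456, and 115, 152 and 164 CPM in the controls. The libraries F371, M374 and M456 were below all controls, and M390 was below the 164 CPM of WT M386 in its batch. Adjusted for batch, the change was -0.78 ± 0.15 in log2 units (edgeR adjusted p = 0.00393), with ratios of -1.16, -0.28 and -0.76 in the 3 batches. Psmd2, the second scaffold gene of the base, and Psmd4, a ubiquitin receptor gene, were at -0.16 ± 0.14 and 0.0070 ± 0.11 and did not pass (edgeR adjusted p = 0.42 and 0.97).

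The lid had 3 of 8 genes lower and 0 higher, against 13.4% and 10.9% of all tested genes. Its median log2 fold change was -0.15. Its within-batch medians were -0.37, -0.023 and 0.0084, and the median was -0.0081 without WT M379, -0.099 without KO M374 and -0.24 without KO M456. Psmd14 (ENSMUSG00000026914, chromosome 2, 61711694 to 61800376) encodes the deubiquitinase of the lid, which cuts ubiquitin chains from the substrate. It was at 83.6, 99.8, 195 and 75.1 CPM in KO F371, M374, M390 and M456 and at 142, 166 and 202 CPM (lowest, median, highest) in the controls. The 3 KO of batches 1 and 3 were far below every control, and M390 almost equalled WT M386, at 198 CPM. In the model the log2 change came to -0.82 ± 0.17 (edgeR adjusted p = 0.00463), and the within-batch ratios were -1.14, -0.023 and -1.06.

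Psmd3 (ENSMUSG00000017221, chromosome 11, 98682554 to 98695978), a structural lid gene, differed in its pattern. Its KO levels were 118, 103, 105 and 129 CPM in F371, M374, M390 and M456, and the controls had 126, 172 and 188 CPM. Here M390 was lower than its batch control, WT M386, which had the lowest control value, and M456 lay just above that value. KO minus WT came to -0.41 ± 0.11 on the log2 scale (edgeR adjusted p = 0.0173), with ratios of -0.49, -0.26 and -0.43.

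Psmd6 (ENSMUSG00000021737, chromosome 14, 14112185 to 14120945), also structural, was at 121, 105, 180 and 109 CPM in KO F371, M374, M390 and M456 and at 140, 159 and 176 CPM in the controls. M390 was above all controls and the other 3 KO below them. The log2 fold change of -0.38 ± 0.12 passed (edgeR adjusted p = 0.0362), and it no longer passed in 11 of 23 alternative settings, with -0.24 without WT M379 (edgeR adjusted p = 0.33). The other 5 lid genes, Psmd7, Psmd8, Psmd11, Psmd12 and Psmd13, had log2 fold changes of -0.25 to 0.11 and none passed.

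The base and the lid were also set against the core within each library, as the difference of their mean log2 CPM over the tested genes. The difference has no fixed zero, since counts also depend on transcript length. Base minus core was 0.40, 0.39, 0.65 and 0.55 in KO F371, M374, M390 and M456 and 0.55, 0.72 and 0.78 (lowest, median, highest) in the controls. Lid minus core was 0.27, 0.23, 0.44 and 0.49 in the same KO and 0.53, 0.62 and 0.69 in the controls. For the lid every KO lay below every control. For the base M390 and the control range overlapped, and M456 equalled the lowest control, M476, to 2 decimals. Within batches 1, 2 and 3 the KO were lower than the controls by log2 differences of -0.31, -0.096 and -0.15 for the base and -0.31, -0.12 and -0.14 for the lid. No test was made on these means. WT M476, the control with the fewest reads (4087197), had the lowest values of both among the controls. The part of library depth in these differences was not tested.

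**Figure D2:**
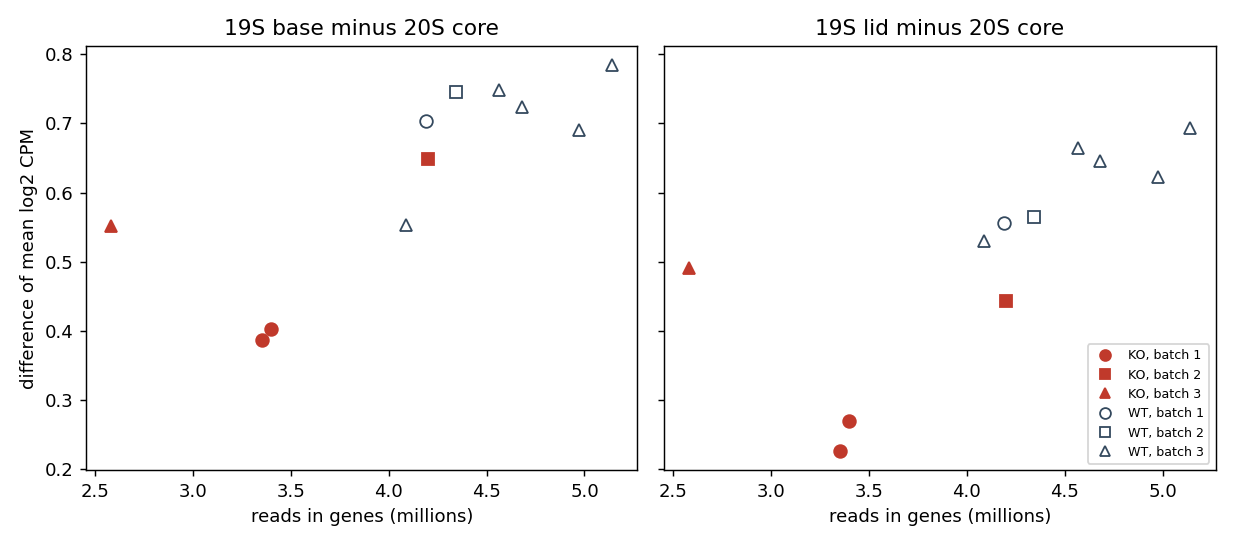
Difference of mean log2 CPM between base and core genes (left) and between lid and core genes (right), plotted against the reads in genes of each library (the axis value 4.09 stands for 4087197 reads); filled symbols are KO, open symbols WT, and shapes give the batch. For the lid all 4 KO lie below the 7 controls, and in both panels the control with the fewest reads is the lowest control.

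Ratios of reads between partner genes within 1 library do not depend on how libraries are scaled. These pairs were chosen after the values were seen and are given as a description. Reads of Psmc2 per read of Psmc5, another ATPase of the ring, were 0.322, 0.341, 0.740 and 0.247 in KO F371, M374, M390 and M456 and 0.600 to 0.764 in the controls. Reads of Psmd14 per read of Psmd7, which encodes the partner with which it forms a dimer, were 0.430, 0.537, 0.939 and 0.373 against 0.790 to 0.956. For Psmb7 per Psmb6 the ratios were 0.378, 0.380, 0.567 and 0.199 against 0.561 to 0.680. Psmd1 per Psmd2 gave 0.373, 0.472, 0.694 and 0.388 against 0.673 to 0.739. In each of these 4 pairs M390 lay inside the control range and the other 3 KO below it.

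**Figure D3:**
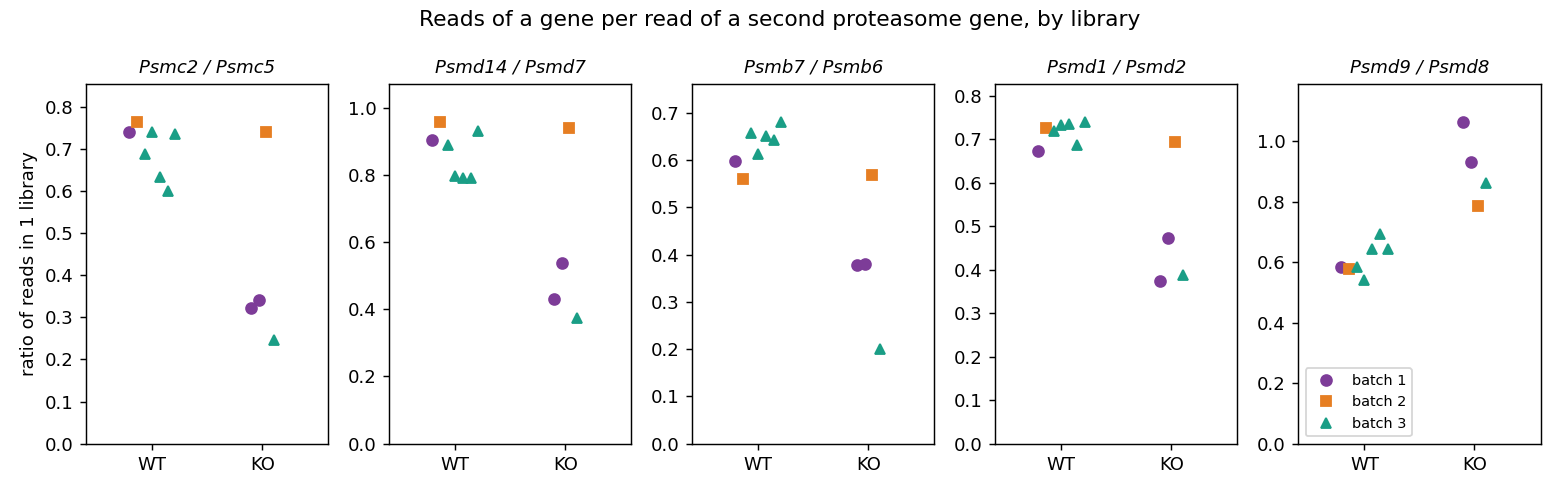
Reads of 1 proteasome gene per read of a second in the same library, for 5 pairs, with WT libraries on the left and KO on the right of each panel and symbols by batch. In the first 4 pairs the KO of batches 1 and 3 lie below all controls and the KO of batch 2 lies among them; for Psmd9 per Psmd8 the 4 KO, at 0.788 to 1.06, lie above the controls, at 0.543 to 0.692.

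Among activators and inhibitors 1 of 5 tested genes was lower and 0 were higher, against 13.4% and 10.9% of all tested genes. Psmf1 (ENSMUSG00000032869, chromosome 2, 151716062 to 151744199) encodes a protein that inhibits the core particle in vitro. It was at 108, 106, 138 and 77.9 CPM in KO F371, M374, M390 and M456 and at 121, 135 and 177 CPM in the controls. M390 lay in the lower part of the control range, below WT M386 at 177 CPM, and the other 3 KO were below all controls. The batch-adjusted log2 difference was -0.62 ± 0.12 (edgeR adjusted p = 0.00397), and all 3 batches were negative, at -0.65, -0.36 and -0.78. The activator genes Psme2, Psme3 and Psme4 had log2 fold changes between -0.13 and -0.025 and did not pass. Psme1, with a low count, was at -0.95 ± 0.58 (edgeR adjusted p = 0.24). No read was assigned to Psme2b, a copy of Psme2, in any library, and reads that fit both copies equally cannot be told apart.

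The assembly chaperones had 2 of 7 genes higher and 0 lower, against 10.9% and 13.4% of all tested genes. Psmd9 (ENSMUSG00000029440, chromosome 5, 123228190 to 123250126) encodes a chaperone of the base. It was at 204, 183, 164 and 195 CPM in KO F371, M374, M390 and M456 and at 120, 133 and 135 CPM (lowest, median, highest) in the controls. All 4 KO, M390 included, were above all 7 controls, and the control range was narrow. On the log2 scale the KO differed from the WT by 0.52 ± 0.096 (edgeR adjusted p = 0.00314, the smallest of the 46 genes), with ratios of 0.52, 0.45 and 0.56 in the 3 batches. In the 5 controls of batch 3 it was at 129 to 133 CPM over library totals of 4087197 to 5142671 reads. KO F371, M374 and M456 had at most 3399746 reads, below this range. The part of depth in the Psmd9 difference cannot be told apart from genotype, since both moved together. The call was lost without KO M456 (log2 fold change 0.49, edgeR adjusted p = 0.0528), and with the library total or the purity score defined below as a covariate (0.47 and 0.57, adjusted p = 0.24 and 0.40).

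Psmg3 (ENSMUSG00000029551, chromosome 5, 139823613 to 139826894) encodes a chaperone of the alpha ring. Its KO levels were 84.7, 92.6, 56.9 and 84.7 CPM in F371, M374, M390 and M456, and the controls had 46.8, 51.5 and 72.8 CPM. The KO of batches 1 and 3 were above all controls and M390 was within their range. Adjusted for batch, the change was 0.57 ± 0.18 in log2 units (edgeR adjusted p = 0.032), with ratios of 0.80, 0.14 and 0.62. The highest control was M476, the one with the fewest reads, and the lowest was M480, the one with the most. The remaining controls were at 50.4 to 52.7 CPM, and the deepest of them, M479, was the highest of them. With the library total as a covariate the value was 0.23 and did not pass (edgeR adjusted p = 0.70). That fit cannot separate the part of depth, since depth and genotype moved together. The call was lost in 10 of 23 alternative settings. The other 5 chaperone genes, Psmg1, Psmg2, Psmg4, Psmd5 and Psmd10, did not pass. Psmd5, a base chaperone gene, came nearest, at -0.44 ± 0.16 (edgeR adjusted p = 0.061).

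Psmc3ip (ENSMUSG00000019303, chromosome 11, 101092141 to 101095435), the gene that is no subunit, had the most negative value of the 46. It was at 8.13, 5.64, 18.7 and 4.82 CPM in KO F371, M374, M390 and M456 and at 12.5, 14.8 and 25.9 CPM in the controls. Again M390 alone was in the control range. In the model the log2 change came to -1.28 ± 0.34 (edgeR adjusted p = 0.0142).

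**Figure D4:**
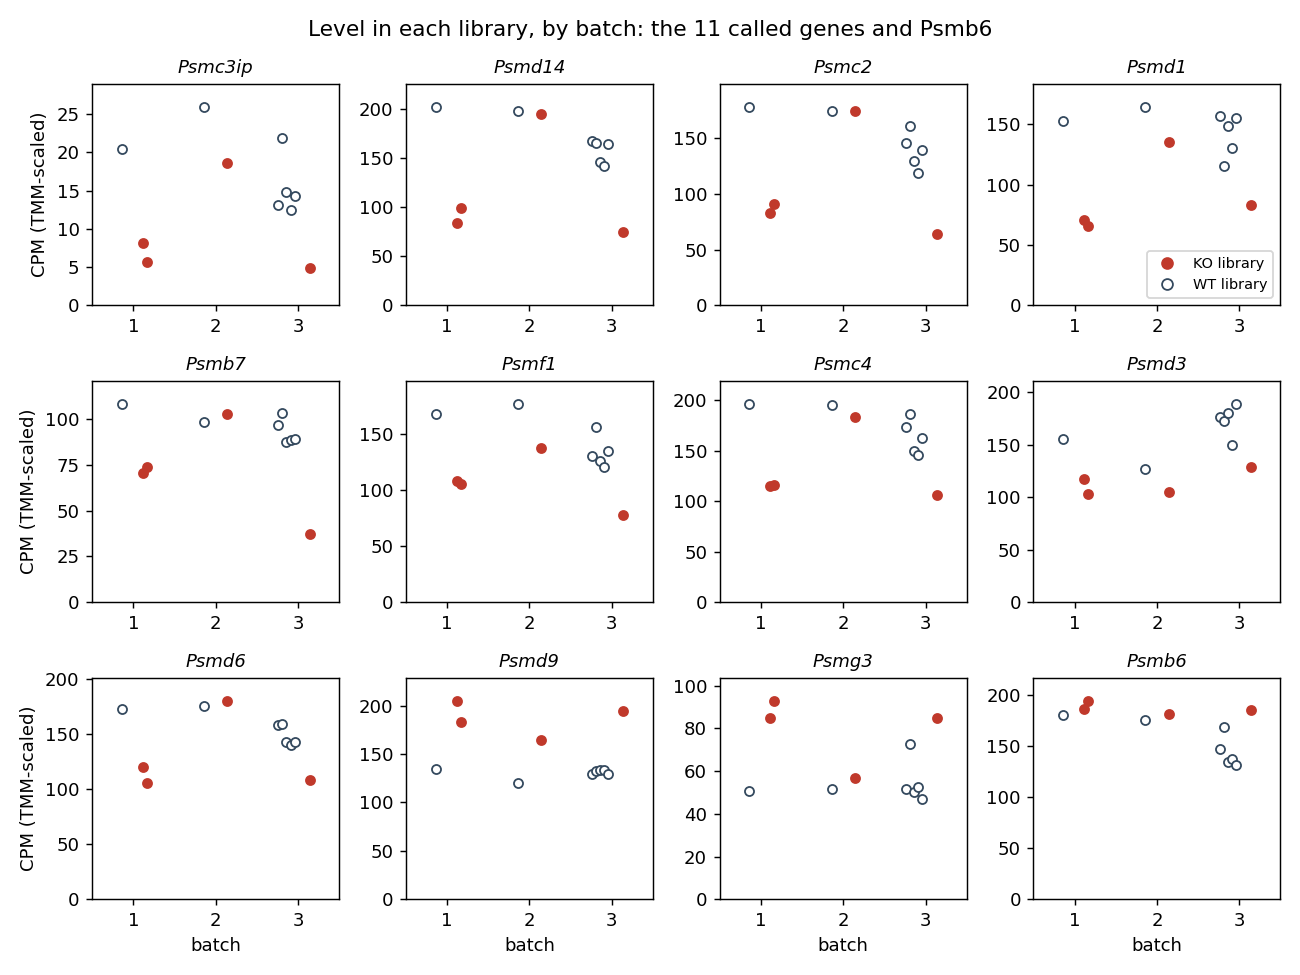
Level in CPM (vertical axis, from 0) of the 11 called genes and of Psmb6 in each library, by batch; filled red points are KO and open points WT. For 8 of the 9 lower genes the KO of batches 1 and 3 lie below all controls, the exception being Psmd3, and for Psmd9 every KO lies above all controls.

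Batch 2, with 1 KO and 1 WT, showed a smaller difference than the other batches for the lower genes. Their 9 ratios had medians of -0.76, -0.089 and -0.78 in batches 1, 2 and 3. Of these genes 9 were negative in batch 1, 6 in batch 2 and 9 in batch 3. All lower genes of the series together had medians of -1.0, -0.25 and -1.06, so the smaller difference in batch 2 is not particular to the proteasome. When the genotype effect of batch 2 was allowed to differ from that of batches 1 and 3 (an interaction term, 6 residual degrees of freedom, added after the data were seen), none of the 46 genes passed by edgeR adjusted p, and 7 had an unadjusted p under 0.05. Among all tested genes 0.0748% passed and 16.1% were under 0.05 unadjusted. The smallest adjusted p of the interaction was that of Psmd14, with a log2 value of 1.08 ± 0.24 (edgeR adjusted p = 0.0863). For Psmd9 it was -0.099 ± 0.21. Without batch 2 the counts were 2 higher and 10 lower.

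**Figure D5:**
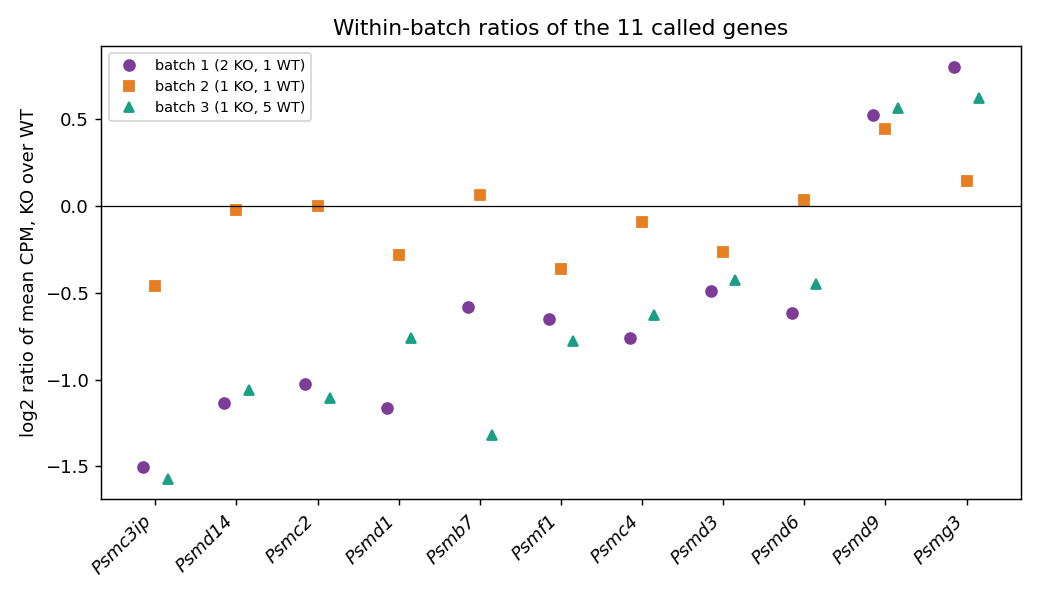
Log2 ratio of mean CPM, KO over WT, within each batch for the 11 called genes (0.5 CPM added to each mean). In batch 2 the ratios of Psmd14, Psmc2, Psmb7, Psmc4 and Psmd6 lie within 0.1 of 0, whereas Psmd9 has ratios of 0.52, 0.45 and 0.56 in batches 1, 2 and 3.

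The sums of granule cell, glia and oligodendrocyte markers lay above every control in KO M374 and M456. In KO F371 and M390 they lay inside the control range. The score below does not measure cell numbers. A purity score subtracts the average log2 CPM over markers of granule cells, glia and oligodendrocytes from the average over Purkinje cell markers. It was 2.94 and 2.12 in KO F371 and M374 against 3.69 in WT M379. In batch 2 it was 3.32 in KO M390 and 3.53 in WT M386, and in batch 3 it was 2.03 in KO M456 and 2.66 to 3.11 in the controls. In an edgeR fit with this score as a term 0 genes of the series passed (1251 had an unadjusted p under 0.05), and 4 proteasome genes were under 0.05 unadjusted. A term for the library total also left 0 passing, with 1841 genes under 0.05 unadjusted, among them 8 of the proteasome. The 11 called genes kept their direction in both, but several values shrank. With purity as a term they were -0.085 for Psmd6, -0.61 for Psmc3ip, -0.29 for Psmc4, -0.42 for Psmb7, -0.48 for Psmc2 and -0.54 for Psmd14. With the library total they were 0.23 for Psmg3, -0.22 for Psmb7 and -0.53 for Psmd14. Genotype, depth and purity moved together in these libraries.

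The spread of the proteasome genes was also taken within the 5 controls of batch 3. The median SD of log2 CPM was 0.138 over the 46 genes and 0.25 over all tested genes. The 2 sets were not matched for read count, on which this SD depends. Whether the difference is a trait of proteasome genes was therefore not tested. The SD was smallest for Psma3, at 0.0213, with 135 to 140 CPM in these controls. It was largest for Psme1, at 0.376, with 8.17 to 16.7 CPM. Psma3 was at 201 and 224 CPM in the controls of batches 1 and 2, so its batches stood further apart than the controls within batch 3.

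Promoter sequences were examined for motifs of known proteasome gene regulators. When the proteasome is inhibited, the transcription factor Nrf1, encoded by Nfe2l1, raises its subunit genes through antioxidant response elements, searched here as TGACNNNGC on both strands, and NF-Y binds the CCAAT box, searched as CCAAT on both strands. RefSeq promoters of GRCm38.p6, from 250 bases before to 50 after each start, were found for 42 of the 50 genes, with 45 starts. The entries for Psma8, Psmb1, Psmb2, Psmb7, Psmc3, Psmd3, Psmd7 and Psmg2 are missing. TGACNNNGC was in 6 of the 45 windows (13.3%) and in 12.4% of all 32851 windows, and CCAAT was in 15 of 45 (33.3%) and in 37.4% of all. Of the 9 called genes with a promoter entry, 1 had TGACNNNGC, Psmd9, and 3 had CCAAT, Psmc2, Psmd14 and Psmc3ip.

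The 100 bases before the start are printed for Psmd9 and Psmg3, the 2 higher genes, for the catalytic genes Psmb5 and Psmb6, and for Psmd14, Psmc2 and Psmd1, which had the steepest falls among subunit genes. Each reads 5′ to 3′ on the gene's own strand, and capitals mark a match to either motif. For Psmd9, at chr5:123228090-123228189 on the plus strand, the match runs from 31 to 23 bases before the start.
Psmd9: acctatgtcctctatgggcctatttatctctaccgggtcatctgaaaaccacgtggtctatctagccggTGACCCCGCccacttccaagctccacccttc
Psmg3, at chr5:139826895-139826994 on the minus strand, holds neither motif in this stretch.
Psmg3: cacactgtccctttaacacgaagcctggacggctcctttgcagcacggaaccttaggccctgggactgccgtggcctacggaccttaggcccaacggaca
Psmb5, at chr14:54617996-54618095 on the minus strand, has TGACNNNGC from 47 to 39 bases before the start.
Psmb5: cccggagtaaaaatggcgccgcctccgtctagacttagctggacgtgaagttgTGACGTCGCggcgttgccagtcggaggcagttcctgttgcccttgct
Psmb6, at chr11:70525257-70525356 on the plus strand, has it from 9 to 1 bases before the start in the promoter table. That start lies 3′ of the gene's annotated start at 70525324, so the match lies inside the annotated gene.
Psmb6: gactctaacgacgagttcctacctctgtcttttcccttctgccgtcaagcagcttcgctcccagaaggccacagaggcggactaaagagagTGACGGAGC
Psmd14, at chr2:61711594-61711693 on the plus strand, holds neither motif in this stretch.
Psmd14: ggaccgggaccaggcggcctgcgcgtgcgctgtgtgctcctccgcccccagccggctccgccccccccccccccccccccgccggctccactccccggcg
Psmc2, at chr5:21785175-21785274 on the plus strand before the first of its 2 listed starts, has CCAAT from 28 to 24 bases before it.
Psmc2: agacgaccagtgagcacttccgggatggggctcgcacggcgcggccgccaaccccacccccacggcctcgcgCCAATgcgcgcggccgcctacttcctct
Psmd1, at chr1:86064519-86064618 on the plus strand, holds neither.
Psmd1: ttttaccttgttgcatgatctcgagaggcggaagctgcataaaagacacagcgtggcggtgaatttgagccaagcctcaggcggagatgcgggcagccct
A match is a run of letters and not a binding site, and its absence applies to these windows alone.

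Genes that work with the proteasome were taken from a list of partners, shuttles and regulators, of which 24 were tested. Of these, 8 were higher and 2 lower, with a median log2 fold change of 0.21, where 10.9% of all tested genes were higher and 13.4% lower. This list and the ubiquitin list below were chosen with earlier results of these data known, so their counts are a description. Rad23b encodes a shuttle that carries ubiquitin-marked proteins to the proteasome. It was at 256, 264, 177 and 286 CPM in KO F371, M374, M390 and M456 and at 135, 165 and 178 CPM (lowest, median, highest) in the controls. M390 lay inside the control range and the other 3 KO above it. Rad23b rose by 0.60 ± 0.13 on the log2 scale (edgeR adjusted p = 0.00694), and by 0.22 with the library total as a term, where it did not pass.

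Akirin2, which encodes a factor that brings proteasomes into the nucleus, rose by 0.71 ± 0.12, and Zfand5, which encodes an activator of the proteasome, by 0.61 ± 0.12 (edgeR adjusted p = 0.00254 and 0.00394). Akirin2 was at 183 to 244 CPM in the KO and 99.0 to 149 in the controls, and Zfand5 at 292 to 348 and 160 to 246, so neither overlapped. Without KO M456 none of Rad23b, Akirin2 and Zfand5 passed, at 0.43, 0.52 and 0.38 (edgeR adjusted p = 0.17, 0.075 and 0.13), nor did Rad23b without WT M379 (0.53, adjusted p = 0.067). With the library total as a term Akirin2 was at 0.35 and Zfand5 at 0.36, neither passing. The small lid gene Sem1, outside the symbol rule, was at 0.49 ± 0.13, and Pomp, the maturation factor gene of the core, at 0.41 ± 0.12. Both passed as higher (edgeR adjusted p = 0.0132 and 0.0231), unlike the lid and core genes above. Ubqln1, Ubqln2 and Vcp were the other 3 higher genes. Ufd1, which encodes a cofactor of the Vcp unfolding enzyme, fell by 0.46 ± 0.14 (edgeR adjusted p = 0.0299). Nfe2l1 itself had a log2 fold change of 0.16 ± 0.13 and did not pass (edgeR adjusted p = 0.39).

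In the list of ubiquitin genes and of enzymes that activate or recycle ubiquitin, 3 of 11 were lower and 0 higher, with a median of -0.31. The share called was 27.3%, near the 24.4% of all tested genes, of which 10.9% were higher and 13.4% lower. Uba1, the main ubiquitin-activating enzyme, was at 71.1, 86.7, 139 and 75.5 CPM in KO F371, M374, M390 and M456 and at 169, 192 and 254 CPM in the controls. All 4 KO were below all controls, with M390 nearest to them. KO minus WT came to -1.09 ± 0.19 on the log2 scale (edgeR adjusted p = 0.00271), with ratios of -1.28, -0.28 and -1.46. The library total as a term moved it to -0.66, which did not pass, nor did -0.86 without KO M456 (edgeR adjusted p = 0.056). The deubiquitinase genes Uchl1 and Otub1 fell by 0.37 ± 0.12 and 0.31 ± 0.10 (edgeR adjusted p = 0.0406 and 0.0439). Both calls were lost in most of the alternative settings, and Otub1 was at -0.13 without WT M379 and -0.17 without the batch term. The ubiquitin genes Ubb and Rps27a, at 0.31 ± 0.20 and 0.21 ± 0.26, did not pass (edgeR adjusted p = 0.27 and 0.58).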

How the data were processed

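Ribosome-bound RNA of 11 libraries was analysed, 4 KO and 7 WT, grouped by the genotype mark in their titles. The deposited files hold raw read counts per gene, which the authors made with STAR and HTSeq on GRCm38, per the submitters' processing notes. For versions, options and strand setting nothing was found in the labels. The 5 summary lines of each file (unassigned reads) stayed out of all totals. Genes were filtered with filterByExpr, scaled with TMM and tested by edgeR 4.0.16 in R 4.3.3 with batch and genotype as terms and 7 residual degrees of freedom. P-values are two-sided and Benjamini-Hochberg adjusted over all 13375 tested genes, threshold 0.05. The SE is the fold change over the root of F. A prior count of 2 went into log2 CPM, and 0.5 CPM was added to both means of a within-batch ratio. Depth was 2583227 to 5142671 reads in genes; without molecular identifiers, PCR copies count as separate reads.

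Genes shown by library were the catalytic and immunoproteasome genes, called members, and up to 4 called genes of each related list. Members and lists were chosen with earlier results of these data known. Positions are from RefSeq on GRCm38.p6. Reads shared with pseudogenes are uncertain; the 4 pseudogene symbols left out had 128 reads in all. Alternatives were scaling by DESeq2 size factors or by library totals only, a fit that ignores batch, 2 other filters, DESeq2 1.42.0, limma-voom (limma 3.58.1), covariates, thinning, other thresholds, and libraries left out. No genome and no protein sequences were used here. No correction for transcript length was made, so levels are not compared between genes. Some genes of the related lists are counted but not reported singly here.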

Additional observations from a re-analysis of the deposited data

Results flagged for a closer look

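In 4 of the groups of libraries examined, 1 library stood apart from the rest of its group by more than a 95% limit for a single far value, a limit that chance passes in about 1 in 20 groups; 44 groups of gene and genotype were examined. Psmc4 was at 184 CPM in KO M390 and at 106 to 116 CPM in the other 3 KO. Otub1, a deubiquitinase gene, was at 276 CPM in KO M390 and at 188 to 194 CPM in the other 3. Psmg3 was at 72.8 CPM in WT M476 and at 46.8 to 52.7 CPM in the other 6 controls. Psmd9 was at 120 CPM in WT M386 and at 129 to 135 CPM in the other 6.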

How the results depend on the processing

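The 11 called genes kept their direction in all 23 alternative fits. The 9 lower calls became 2 without the batch term, 5 in animals tagged M, 5 at an adjusted p under 0.01, and 0 with the library total or the purity score as a covariate. The 2 higher calls became 1 without a filter, 1 in animals tagged M, 1 at 0.01, and 0 with either covariate; with these covariates no gene of the series passed by edgeR. Leaving out 1 library gave 0 to 4 higher and 0 to 10 lower. In the settings not named for a count, DESeq2 and limma-voom included, 2 or 3 were higher and 8 to 10 lower. The core median moved to 0.12 without the batch term. With the library total the core, base and lid medians were -0.10, -0.23 and -0.27, and with the purity score the lid median was -0.055. Leaving out 1 library gave medians of -0.015 to 0.076 for the core, -0.15 to 0.021 for the base and -0.24 to -0.0081 for the lid. Psmb9 turned negative without the batch term (-0.13), by limma-voom (-0.28), without batch 2 (-0.18), in animals tagged M (-0.48) and without F371 (-0.48), M390 (-0.18) or M386 (-0.18), in a range of -0.48 to 1.23 over the libraries left out. Psmb5, Psmb6 and Psmb10 turned to -0.12, -0.084 and -0.28 with the library total, and Psmb10 to -0.068 without M456, in a range of -0.068 to 0.20 over the libraries left out. The cause was not tested. No paired analysis was possible because the animal tags differ between KO and WT. Psmb8, Psmb9, Psmb11 and Psma8 had too few reads for a small difference to be detectable.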

Other observations

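The gene span in RefSeq had a median of 18.5 kb for the 9 lower genes and 11.03 kb for the other tested proteasome genes. Across the 46 genes Spearman's rho between span and log2 fold change was -0.36, and across 12872 tested genes it was 0.11. These are descriptions across genes of the same libraries, and genes are not independent replicates.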
